A study of Xenopus tropicalis with 12 samples.

Results

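The genes described here were lowered by T3 in WT tadpole brain. In *thra* mt-exon4 tadpole brain their mean under T3 stayed within a set window around the vehicle mean. They were selected on the measured values themselves, from counts scaled to CPM, the count of a gene for each 1000000 counts of its library. A member had a mean CPM of at least 1 in WT vehicle, a WT T3 mean of at most 0.67 times the WT vehicle mean, all 3 WT T3 libraries below all 3 WT vehicle libraries, and a *thra* mt-exon4 T3 mean between 0.85 and 1.2 times the *thra* mt-exon4 vehicle mean. Of the 33875 features counted, 22820 were annotated genes with an XLOC identifier, and 15258 of these reached 1 CPM in WT vehicle. The rule kept 267 genes. The lowering in WT and the mutant mean ratio inside the window are therefore how the members were found and are given as a description, without a test.

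RNA was sequenced from the preoptic area/thalamus/hypothalamus of *Xenopus tropicalis* tadpoles at Nieuwkoop-Faber (NF) stage 54, a stage before metamorphosis. There were 4 groups of 3 libraries, each library from the pooled tissue of 5 tadpoles: wild type (WT) kept in vehicle, WT kept in 5 nM T3 for 16 h, and homozygous *thra* mt-exon4 tadpoles in vehicle or in T3 for the same time. The mutant line carries a TALEN-made mutation in exon 4 of *thra* that truncates thyroid hormone receptor α before its DNA binding domain, and its homozygotes came from crosses of heterozygous frogs, whereas WT frogs came from a supplier. The sample labels give dilute NaOH as the vehicle and the series text gives DMSO. The mutation is present in all cells, and the dissected block included several brain regions and the pituitary. In such bulk tissue, fewer cells of a type and less RNA per cell cannot be told apart.

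Thyroid hormone receptors are nuclear receptors that sit on DNA with and without hormone. At genes that T3 induces, the unliganded receptor recruits corepressors, and hormone exchanges these for coactivators. Genes lowered by T3 are less well understood as a class. The best known are in the feedback loop of the thyroid axis, where T3 lowers thyrotropin transcription in the pituitary, and a lowered mRNA can also follow from a change in other regulators or in the cells present. In tadpoles T3 drives metamorphosis, and the brain responds with cell proliferation and with large changes of mRNA levels.

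None of the 267 members could be paired with a gene symbol. Symbols were paired through a shortened list that is ordered by the WT response and holds mainly induced genes, and it named 1542 XLOC features, none of them a member. For this reason members are given by identifier and no function is stated for them. Of the 8 repressed genes that the study names, among them *tshb*, which encodes the β subunit of thyrotropin, 0 could be paired, so it is not known here whether they are members. The targeted gene *thra* was also not paired, so the mutation could not be checked in the libraries.

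Library totals ran from 41012459 to 67603703 expected counts, so 1 count in the shallowest library was worth 0.0244 CPM. WT vehicle replicate 3 stood apart for the members. Members summed to 5635 CPM in that library, compared with 4698 and 4760 CPM in WT vehicle replicates 1 and 2. It held the highest of the 3 WT vehicle values for 178 of the 267 members (66.7%, compared with 41.9% of all genes of at least 1 CPM). *klf9*, a transcription factor gene that T3 induces directly, was at 10.7 CPM in WT vehicle replicate 3 and at 25.5 and 26.9 CPM in replicates 1 and 2. Other genes raised by T3 in WT differed in this. In WT vehicle replicates 1, 2 and 3 *prmt1* was at 383, 350 and 265 CPM and *thrb* at 13.5, 13.5 and 12.1 CPM. There *dio3* was at 3.47, 2.16 and 2.69 CPM. In the mutant, vehicle replicate 1 held the lowest vehicle value for 163 members (61.0%, compared with 39.9% of all genes). The rule used both vehicle groups, so these shares of members are partly set by the choice. Nothing is read from their excess over all genes. The part of these libraries in the results was not tested, and values without them are given beside the results.

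The members were of modest abundance. Their median WT vehicle level was 5.03 CPM, compared with 23.7 CPM for all genes of at least 1 CPM, and the range ran from 1.001 to 636 CPM. Per length, the median was 6.85 TPM, which scales counts by transcript length as well as depth, compared with 20.9 TPM for all genes. Their median length was 2913 bases, compared with 3925 bases. Of the 267 members, 133 lay under 5 CPM and 23 were at 50 CPM or above. Genes between 1 and 5 CPM met the rule more often (133 of 2940, 4.52%) than genes between 5 and 50 CPM (111 of 7663, 1.45%) or of 50 CPM and above (23 of 4655, 0.494%). The median coefficient of variation among the 3 WT vehicle libraries was 15.4% for members and 8.66% for all genes.

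In WT, T3 lowered the members to a median of 0.616 of their vehicle mean, with quartiles of 0.571 and 0.649. Most members sat near the limit, and 19 were at or under 0.5. The summed level of the members was 4698, 4760 and 5635 CPM in WT vehicle and 3022, 3252 and 2969 CPM in WT T3. In the mutant the sums were 4395, 5150 and 4900 CPM in vehicle and 4670, 4383 and 4733 CPM in T3. The mutant groups thus overlapped in their sums, and both lay above every WT T3 library. Relative to the WT vehicle mean of each gene, the median member was at 0.597, 0.633 and 0.597 in the 3 WT T3 libraries, at 0.804, 0.895 and 0.914 in mutant vehicle, and at 0.871, 0.807 and 0.880 in mutant T3. The same medians over all genes of at least 1 CPM lay between 0.969 and 0.997 in the 6 mutant libraries and between 0.982 and 0.989 in the 3 WT T3 libraries.

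**Figure D1:**
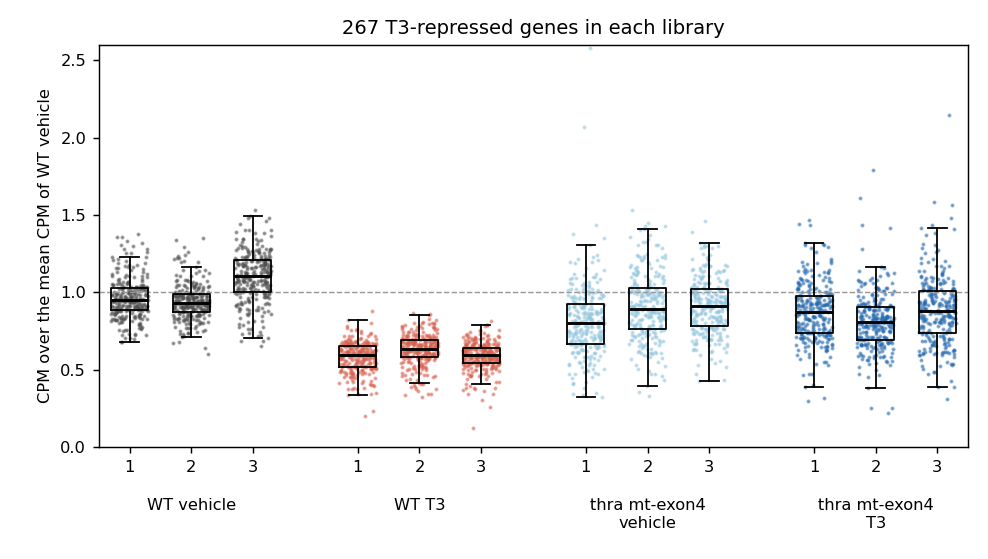
CPM of each of the 267 members divided by that gene's mean CPM in WT vehicle, for the 3 libraries of each group (points are genes; boxes give the median and quartiles, whiskers reach 1.5 times the box). WT T3 medians lie at 0.597 to 0.633 and mutant medians at 0.804 to 0.914 in vehicle and 0.807 to 0.880 in T3, and WT vehicle replicate 3 lies above the other WT vehicle libraries.

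With edgeR's quasi-likelihood test over 22018 features, 185 of the 267 members were called lower in WT T3 than in WT vehicle (adjusted p of at most 0.05), where 5.53% of all features tested were called in that direction. The rule used this contrast, so nothing is read from that share. The 82 members that were not called were mainly the low ones, since 63 of 133 members under 5 CPM were called, 100 of 111 between 5 and 50 CPM, and 22 of 23 at 50 CPM or above. The count depended on single libraries. It fell to 92 and 95 when WT T3 replicate 1 or 3 was left out and to 125 when WT vehicle replicate 3 was. Calls in that direction over all features fell as well, from 1217 to 412, 412 and 818 in the same fits. In the absence of WT vehicle replicate 3 the WT ratio stayed at or under 0.67 for 165 of the 267 members. In the absence of any 1 of the other 5 WT libraries it did so for 220 to 252.

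The largest proportional lowering was seen in 5 members, of which 4 were scarce. XLOC_041826 had the lowest ratio, 0.294. Its values were 0.772, 0.972 and 1.65 CPM in WT vehicle, 0.262, 0.391 and 0.344 CPM in WT T3, 0.603, 0.969 and 1.23 CPM in mutant vehicle, and 0.793, 0.9003 and 0.814 CPM in mutant T3. The highest of the WT vehicle values was again that of replicate 3. XLOC_005734 (ratio 0.360) was at 1.34, 1.07 and 0.779 CPM in WT vehicle and at 0.213, 0.341 and 0.592 CPM in WT T3. In the mutant it was at 0.439, 0.354 and 0.784 CPM in vehicle and at 0.498, 0.696 and 0.333 CPM in T3. The mutant was thus low for this gene with and without hormone, and its level there overlapped that of WT T3. A flat mutant response at this member is a flat response from a level near that of hormone-treated WT.

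XLOC_013562 (ratio 0.402) was at 1.78, 2.15 and 3.41 CPM in WT vehicle and 0.838, 1.26 and 0.847 CPM in WT T3, and between 1.47 and 2.89 CPM in the 6 mutant libraries. XLOC_009465 (ratio 0.408), a model of only 510 bases, was at 1.1203, 1.23 and 0.932 CPM in WT vehicle and 0.5496, 0.374 and 0.415 CPM in WT T3, and between 0.720 and 1.34 CPM in the mutant. For both genes every mutant library lay above every WT T3 library. XLOC_041159 (ratio 0.349) was the abundant gene of these 5, at 51.5, 62.6 and 60.5 CPM in WT vehicle and 22.4, 23.3 and 15.3 CPM in WT T3. In mutant vehicle it was at 45.3, 39.0 and 25.4 CPM and in mutant T3 at 44.1, 38.3 and 28.3 CPM. Both mutant groups lay between the WT groups, with no library of the mutant in vehicle as high as any WT vehicle library, and replicate 3 was the lowest of each mutant group.

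At the limit of the rule, XLOC_016048 was the last gene inside, with a WT ratio of 0.6699, and XLOC_022703 the first gene outside, with 0.6703. XLOC_016048 was at 18.1, 19.2 and 19.9 CPM in WT vehicle, 13.0, 13.2 and 12.1 CPM in WT T3, 11.9, 15.1 and 14.0 CPM in mutant vehicle and 12.6, 12.8 and 13.1 CPM in mutant T3. This gene was already low in mutant vehicle. At the limits of the mutant window, the last genes inside had mutant ratios of 0.852 (XLOC_025164) and 1.19 (XLOC_039299), and the first outside 0.8496 (XLOC_021460) and 1.2004 (XLOC_022123).

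The 5 members with the most reads had WT ratios on both sides of the members' median of 0.616. The ratio was 0.652 for XLOC_037313, 0.561 for XLOC_034893 and 0.593 for XLOC_035332. It was 0.641 for XLOC_025164 and 0.663 for XLOC_042377. XLOC_037313 was at 554, 578 and 774 CPM in WT vehicle, 403, 435 and 405 CPM in WT T3, 555, 712 and 635 CPM in mutant vehicle, and 606, 590 and 573 CPM in mutant T3. XLOC_034893 was at 172, 190 and 283 CPM in WT vehicle, 101, 133 and 128 CPM in WT T3, 187, 239 and 219 CPM in mutant vehicle, and 200, 191 and 173 CPM in mutant T3. XLOC_035332 was at 133, 145 and 206 CPM in WT vehicle, 109, 91.8 and 86.4 CPM in WT T3, 155, 201 and 176 CPM in mutant vehicle, and 135, 159 and 175 CPM in mutant T3. In these 3 genes WT vehicle replicate 3 was far above replicates 1 and 2, and mutant vehicle replicate 1 was the lowest of its group. Their mutant vehicle means were 0.997, 1.001 and 1.099 times the WT vehicle means, in the order named.

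XLOC_025164, with the longest model of the members (19803 bases), was at 235, 221 and 259 CPM in WT vehicle, 147, 163 and 150 CPM in WT T3, 232, 227 and 229 CPM in mutant vehicle, and 191, 193 and 202 CPM in mutant T3. All 3 mutant T3 libraries lay below all 3 mutant vehicle libraries, and its mutant ratio of 0.852 was just inside the window. XLOC_042377 was at 119, 105 and 120 CPM in WT vehicle, 72.8, 74.8 and 80.4 CPM in WT T3, 106, 108 and 101 CPM in mutant vehicle, and 101, 80.9 and 94.6 CPM in mutant T3. All 5 of these genes had a lower mean in mutant T3 than in mutant vehicle. The mutant ratio was 0.930 for XLOC_037313, 0.873 for XLOC_034893, 0.882 for XLOC_035332 and 0.877 for XLOC_042377. For XLOC_025164 and XLOC_042377 the fitted log2 changes were −0.24 (SE 0.06) and −0.20 (SE 0.08) in the mutant. In WT they were −0.64 (SE 0.06) and −0.59 (SE 0.08). Per length, the most abundant of these 5 were XLOC_037313 (368 TPM in WT vehicle) and XLOC_042377 (169 TPM), and the long XLOC_025164 was at 39.5 TPM.

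**Figure D2:**
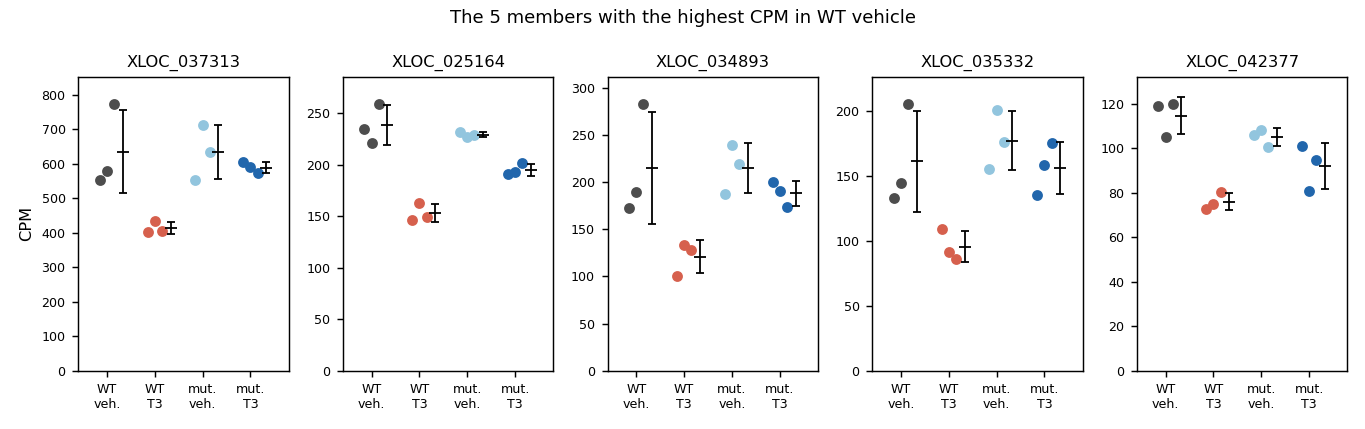
CPM of the 5 members with the highest CPM in WT vehicle, in the 3 libraries of each group (points; the bar beside them is the mean with its SD, n = 3). In each panel the WT T3 libraries lie below the other groups, and XLOC_025164 is lower in all 3 mutant T3 libraries than in mutant vehicle.

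The mutant response of the members was held near 1 by the rule, with a median T3 over vehicle ratio of 0.966. The T3 and vehicle libraries of the mutant overlapped in 254 members, the T3 libraries were all lower in 10, and all higher in 3. Over the 15258 genes of at least 1 CPM in WT vehicle these counts were 12731, 1032 and 1495. The mutant T3 mean was below the mutant vehicle mean in 167 members and at or above it in 100. In the mutant 0 of 267 members were called for T3 over vehicle by edgeR, where 0.254% of all features were called in either direction. At an unadjusted p under 0.05 there were 7, where 9.76% of all features were. DESeq2 called 1 member, where it called 2.15% of the features it gave an adjusted p, and limma-voom called 0, where it called 0.186% of all features. The window of the rule keeps members from large mutant changes, so nothing is read from these counts. A mean ratio inside the window does not bound the response of a single gene. A 95% interval of the fitted mutant log2 change was made from the standard error of edgeR's test and a t quantile with 8 residual degrees of freedom. The test itself adds prior degrees of freedom, so these intervals are at least as wide as the test's. Their median half-width was 0.41. The interval lay wholly above −0.58, the log2 of the 0.67 limit used in WT, for 196 of the 267 members. This held for 120 of the 134 members of 5 CPM and above and for 76 of the 133 below. For the other 71 members the interval reached the limit used in WT. The window also constrained the estimates at the centre of these intervals. The counts therefore describe the width of the intervals, and no size of mutant response is excluded by them. For 6 members the interval lay wholly below 0.

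The members are a portion of a continuous spread of mutant responses. The WT part of the rule was met by 439 genes. The mutant ratio was below 0.85 in 146 of these, inside the window in the 267 members, and above 1.2 in 26. In 32 of the 146 it was at most 0.67, the limit on the ratio of means asked of WT. All 3 mutant T3 libraries lay below all 3 mutant vehicle libraries in 24 of these 32, and the groups overlapped in 8. The share of members among genes meeting the WT part was similar at each abundance, 62.1% under 5 CPM, 58.4% from 5 to 50 CPM and 65.7% from 50 CPM. The median WT ratio of the 146 genes was 0.570. With a narrower mutant window of 0.9 to 1.1 there were 170 members, with a WT limit of 0.5 there were 19, and with a floor of 5 CPM there were 134.

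**Figure D3:**
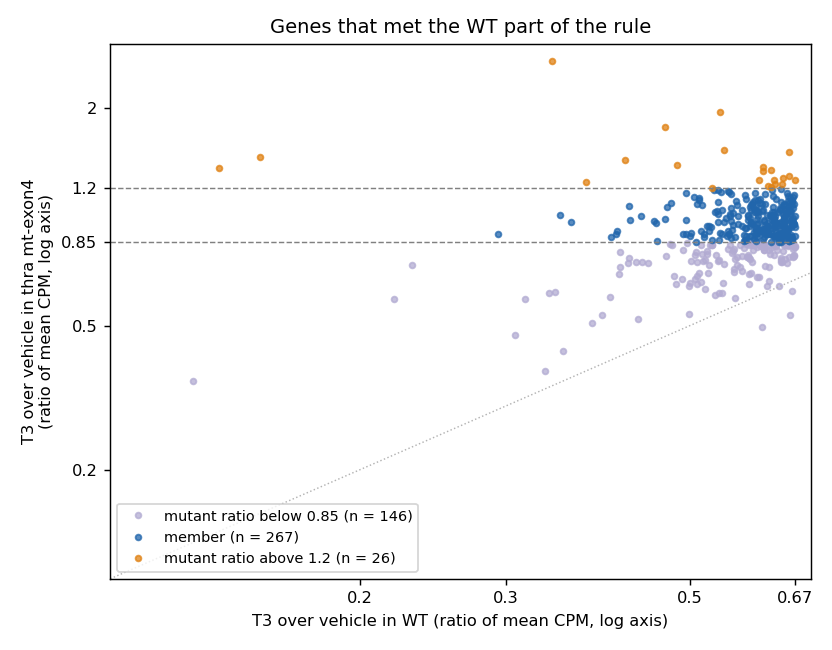
T3 over vehicle in WT (horizontal, log axis) and in *thra* mt-exon4 (vertical, log axis), as ratios of mean CPM, for the genes that met the WT part of the rule; dashed lines mark the window of 0.85 to 1.2 and the dotted line equal ratios, and 5 genes lie outside the axes. The 267 members fill the band between the dashed lines next to 146 genes below and 26 above, without a gap at either line.

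The difference between the responses was called in 16 members, all of them with the mutant response above the WT response, where 0.173% of all features were called in that direction. The same libraries chose the members, so this is a description. No member under 5 CPM was among the 16, whose lowest WT vehicle mean was 12.3 CPM. There were 8 from 5 to 50 CPM and 8 at 50 CPM and above. Their median ratio was 0.584 in WT and 1.05 in the mutant, and the fitted difference of their log2 responses ran from 0.56 to 1.52. All 16 were also called for T3 in WT and for mutant T3 over WT T3. For the other 251 members the difference between the genotypes was not called, and their description as genes that need *thra* rests on group means. DESeq2 called the difference in 64 of the 249 members it gave an adjusted p, and in that direction it called 1.54% of all features with an adjusted p. The rise from 16 to 64 thus went with more calls over all features. The limma-voom fit called 15 members and 0.177% of all features. Leaving out 1 library in the edgeR fit gave fewer. In the full fit 38 of all features were called in that direction. The count of members was 5, 6 and 3 without WT T3 replicates 1, 2 and 3, with 9, 16 and 7 over all features. It was 11, 7 and 12 without WT vehicle replicates 1, 2 and 3, with 31, 17 and 47 over all features. It was 8, 12 and 8 without mutant vehicle replicates 1, 2 and 3, with 16, 30 and 31 over all features. Without mutant T3 replicates 1, 2 and 3 it was 7, 9 and 7, with 37, 20 and 15 over all features.

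Of the 5 members ranked first by this contrast, XLOC_035879 was the tightest in WT. It was at 38.3, 36.2 and 38.0 CPM in WT vehicle, 20.5, 19.4 and 20.2 CPM in WT T3, 37.1, 31.7 and 37.6 CPM in mutant vehicle, and 49.4, 37.9 and 38.6 CPM in mutant T3. Every mutant library lay well above WT T3, and every mutant T3 library lay above every mutant vehicle library. XLOC_024386 was at 63.0, 79.1 and 93.9 CPM in WT vehicle, 39.4, 41.4 and 36.1 CPM in WT T3, 61.8, 57.5 and 64.3 CPM in mutant vehicle, and 72.6, 65.4 and 75.7 CPM in mutant T3. Its mutant groups did not overlap either, and mutant T3 was the higher, though its mean was below that of WT vehicle, unlike in XLOC_035879. The fitted log2 change of XLOC_024386 was −1.01 (SE 0.12) in WT and 0.21 (SE 0.11) in the mutant.

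XLOC_002878 was at 52.8, 47.9 and 53.5 CPM in WT vehicle, 22.9, 29.0 and 25.4 CPM in WT T3, 52.6, 56.1 and 53.1 CPM in mutant vehicle, and 49.6, 42.6 and 53.4 CPM in mutant T3. Its baseline level did not separate the genotypes, and the mutant groups overlapped. XLOC_045219 was at 107, 109.9 and 117 CPM in WT vehicle, 65.5, 69.4 and 65.3 CPM in WT T3, 81.9, 90.3 and 96.0 CPM in mutant vehicle, and 96.0, 86.9 and 99.5 CPM in mutant T3. XLOC_014337 was at 14.3, 12.7 and 13.8 CPM in WT vehicle, 8.41, 8.05 and 8.004 CPM in WT T3, 8.81, 11.97 and 12.2 CPM in mutant vehicle, and 12.3, 12.3 and 13.8 CPM in mutant T3. In both genes all mutant vehicle libraries were below all WT vehicle libraries and all mutant libraries were above all WT T3 libraries. For XLOC_014337 mutant vehicle replicate 1 came close to the WT T3 level, and the mutant T3 libraries lay above the mutant vehicle libraries by a margin of 0.002 CPM.

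**Figure D4:**
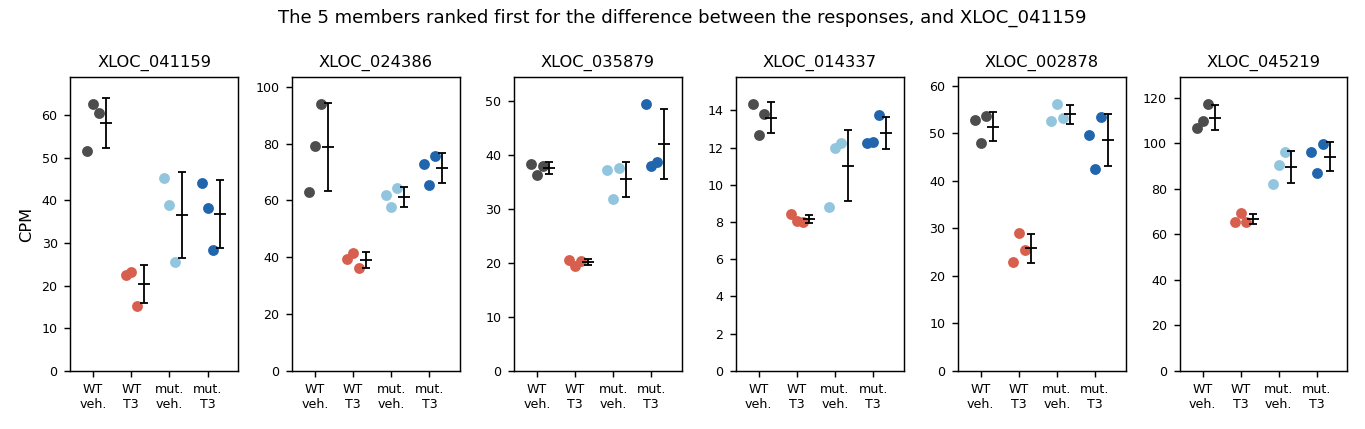
CPM of the 5 members ranked first for the difference between the mutant and WT responses, and of XLOC_041159, in the 3 libraries of each group (points; the bar beside them is the mean with its SD, n = 3). WT T3 is the lowest group in each panel, and mutant T3 is higher than mutant vehicle without overlap in XLOC_024386, XLOC_035879 and, narrowly, XLOC_014337.

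Before hormone, most members had a somewhat lower mean in the mutant than in WT. The rule used both vehicle groups, so the counts in this comparison are partly set by the choice. Nothing is read from their excess over all genes. The mutant vehicle mean was below the WT vehicle mean in 211 of 267 members (79.0%, compared with 58.1% of all genes), and the median ratio was 0.874, with quartiles of 0.762 and 0.984. In 206 members the mutant vehicle mean lay between the WT T3 and WT vehicle means, in 56 it was at or above WT vehicle, and in 5 at or below WT T3. Over the 15258 genes of at least 1 CPM these counts were 3075, 6388 and 8265, where a gene that rose in WT can be in both of the latter. On a scale where WT T3 is 0 and WT vehicle is 1, the median mutant vehicle mean was at 0.69 and the median mutant T3 mean at 0.62. All 3 mutant vehicle libraries were below all 3 WT vehicle libraries in 71 members (26.6%, compared with 11.1% of all genes). The edgeR test called 2 members lower in mutant vehicle than in WT vehicle, where 0.413% of all features were called, and DESeq2 called 9, where it called 1.71% of the features it gave an adjusted p. With single libraries left out of the edgeR fit, 4 were called lower and 1 higher in the absence of WT vehicle replicate 3. Over all features that fit called 319 lower and 185 higher, compared with 91 and 36 in the full fit. There was 1 without mutant vehicle replicate 2 or mutant T3 replicate 3, and 0 without any other WT library, without mutant vehicle replicate 1 or 3, or without mutant T3 replicate 2. Over all features, 34 and 90 were called lower in the fits with 1 member, in the order named. In the fits with 0 members, 18 to 74 features were called lower. The 2 members called in the full fit were XLOC_016048 and XLOC_030851. XLOC_030851, named here after its values were seen, was at 19.3, 17.6 and 16.4 CPM in WT vehicle, 12.4, 11.4 and 10.9 CPM in WT T3, 12.2, 12.3 and 13.6 CPM in mutant vehicle, and 12.6, 11.0 and 11.4 CPM in mutant T3. In both genes the mutant groups lay at about the level of WT T3.

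The WT vehicle values that chose the members also enter this ratio, and the mutant vehicle mean is the denominator of the window. Without WT vehicle replicate 3 the median ratio was 0.914 and 184 members were lower in the mutant, and without mutant vehicle replicate 1 the median was 0.897 and 186 members were lower. When genes were chosen by the rule without the WT libraries of 1 replicate number and mutant vehicle was compared with the WT vehicle library left out, the median ratio was 0.990, 0.982 and 0.904 for numbers 1, 2 and 3. Over all genes these ratios were 0.972, 0.991 and 0.981. Mutant vehicle was below the unused WT vehicle library in 51.1%, 54.1% and 60.6% of the chosen genes. For all genes these shares were 57.8%, 53.4% and 55.9%. Against an unused WT vehicle library the chosen genes thus had a lower median ratio than all genes for numbers 2 and 3, mainly for number 3. For number 1 their median ratio was the higher. The lower baseline of the mutant in the libraries that chose the members was thus not seen against every unused library.

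The 71 members with separate baselines and the other 196 were alike in abundance and in the WT ratio, with median WT vehicle levels of 4.67 and 5.60 CPM and median WT ratios of 0.625 and 0.615. By the split, their median ratios of mutant vehicle to WT vehicle were 0.732 and 0.926. The rule keeps mutant T3 near mutant vehicle, and the WT ratios were alike. A lower level of the mutant under T3 in the 71 therefore largely follows from the split. The median ratio of mutant T3 to WT T3 was 1.22 for the 71 and 1.48 for the 196, and 9 and 85 of them were called higher in mutant T3. The difference between the responses was called in 7 of the 71 and in 9 of the 196. The split was made on the same libraries and is a description, and nothing is read from the difference between the parts under T3.

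Under T3 the mean of nearly all members was higher in the mutant than in WT. The rule asked for low WT T3 values in these same libraries and for mutant T3 near mutant vehicle, so the counts in this comparison are largely fixed by the choice and nothing is read from their excess over all genes. The mutant T3 mean was above the WT T3 mean in 256 of 267 members and in 7513 of the 15258 genes of at least 1 CPM. The median ratio of the members was 1.40, with quartiles of 1.23 and 1.59. All 3 mutant T3 libraries were above all 3 WT T3 libraries in 168 members (62.9%, compared with 18.6% of all genes). By edgeR 94 members were called higher in mutant T3, where 3.70% of all features were called in that direction, and 89 of the 94 were also called for T3 in WT. The count was 39 without WT T3 replicate 1, 32 without WT T3 replicate 3, and 59, 62 and 44 without mutant T3 replicates 1, 2 and 3. Over all features, 815 were called in that direction in the full fit. In these fits it was 167, 127, 389, 316 and 269, in the order named.

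Values that the rule did not use came from the WT libraries left out. Genes were chosen with the 4 WT libraries of the other 2 replicate numbers and all 6 mutant libraries. They were read in the WT vehicle and WT T3 libraries of the number left out. As far as the labels tell, such libraries share no more than a number. The choices held 354, 486 and 290 genes for numbers 1, 2 and 3, and 106 genes were in all 3 choices, all of them members. In the unused libraries WT T3 was below WT vehicle in 309 of 354 genes (87.3%), 408 of 486 (84.0%) and 213 of 289 (73.7%), since 1 of the 290 genes was listed at 0 in WT vehicle replicate 3 and has no ratio there. Over all genes of at least 1 CPM the same shares were 55.3%, 51.5% and 50.5%. The median ratio of the unused WT T3 to the unused WT vehicle library was 0.722, 0.795 and 0.748, compared with 0.980, 0.995 and 0.997 over all genes. The lowering was thus seen in each unused pair and was smaller than the 0.616 of the members in the libraries that chose them. The unused ratio was at or under 0.67 in 36.4%, 22.4% and 40.5% of the chosen genes and in 5.88%, 3.41% and 7.90% of all genes.

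The higher level in mutant T3 was also seen with the unused WT T3 library, with median ratios of 1.32, 1.204 and 1.25 for numbers 1, 2 and 3, compared with 0.998, 1.003 and 0.992 over all genes. The 3 choices share libraries with each other and are not independent of one another, and the mutant libraries were used in each choice through the window.

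**Figure D5:**
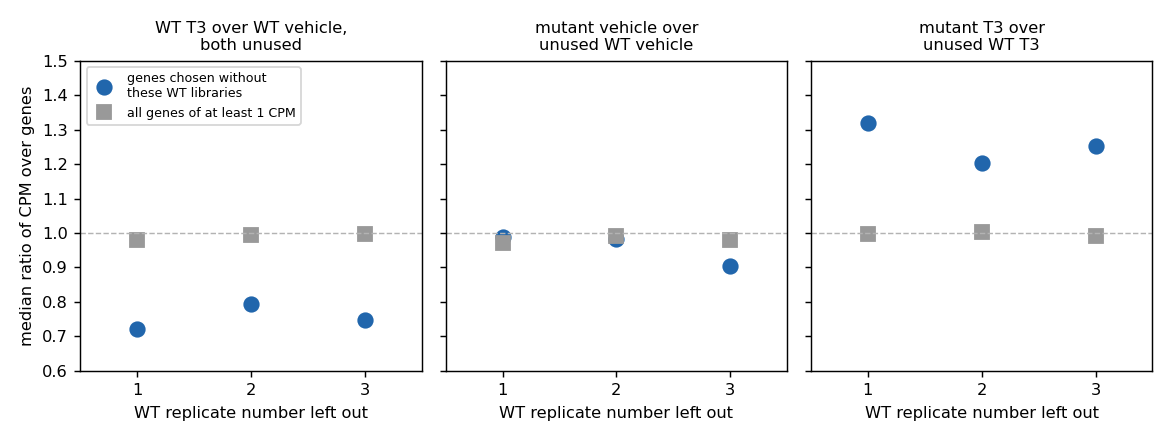
Median over genes of 3 CPM ratios, for genes chosen by the rule without the WT libraries of 1 replicate number (circles) and for all genes of at least 1 CPM (squares), by the number left out. In the unused libraries WT T3 over WT vehicle was 0.722 to 0.795 and mutant T3 over WT T3 was 1.204 to 1.32, while mutant vehicle over WT vehicle was 0.904 to 0.990.

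Of the 30 genes of the thyroid hormone pathway looked for, 12 could be paired, with 13 identifiers, none of them a member. In WT 12 of the 13 rose under T3 and 1 fell, and in the mutant 7 rose (edgeR, adjusted p of at most 0.05). Since the pairing list holds mainly genes induced in WT, this count says little about the pathway. *tbl1xr1*, which encodes a subunit of a corepressor complex, was the gene that fell in WT, from between 79.4 and 81.8 CPM to between 70.5 and 72.0 CPM (log2 change −0.17, SE 0.04, edgeR adjusted p = 0.024). *thrb*, the receptor gene that T3 induces, had group means of 13.0 CPM in WT vehicle and 112 CPM in WT T3, and of 26.8 and 76.8 CPM in the mutant. The mutant tadpoles thus responded to the hormone at *thrb* (log2 change 1.51, SE 0.08, edgeR adjusted p = 2.62e-06).

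Markers of cell types could be checked only in part. The neuronal genes *snap25*, of the synaptic vesicle fusion machinery, and *elavl3*, an RNA binding protein, were abundant in every library, at 662 to 812 CPM and 323 to 424 CPM. Neither was called for T3 in either genotype. In WT, *snap25* was at 758 to 812 CPM in vehicle and 662 to 706 CPM in T3 (edgeR adjusted p = 0.065). There *elavl3* was at 331 to 374 CPM in vehicle and 415 to 424 CPM in T3 (edgeR adjusted p = 0.051). The WT groups thus did not overlap, with *snap25* lower and *elavl3* higher in T3. Of the inner ear genes, *otop1*, needed for otolith formation in other vertebrates, and *pla2g2e*, a secreted phospholipase, were paired. *pla2g2e* was at 0.399 to 0.447 CPM in WT vehicle, at 74.8 to 108.8 CPM in WT T3 and at 0.134 to 1.39 CPM in the mutant, and *otop1* was at 1.56 to 2.98 CPM in WT T3 and at most 0.040 CPM in every other library. The part of inner ear tissue in the members' values was not tested. No marker of the lists for glia and progenitors, pituitary, blood, or muscle and skeleton was paired.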

How the data were processed

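Per the methods, Illumina reads from single ends were aligned by Bowtie (genome v4.1 of *X. tropicalis*), and RSEM counted them on the custom MNHN annotation. The authors deposited unnormalized RSEM expected counts for 12 libraries, where RSEM divides ambiguous reads among features. TPM per library was deposited by the authors as well with the length of each feature. TPM was used for levels per length only. The RSEM version is not given in the sources used here, and the submitters' processing notes name CASAVA 1.8.2 and cutadapt.

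CPM was the expected count over the library total, new_exon features included (4.18% to 4.43% of a library's counts). Of the 267 members, 172 (64.4%) had a count that was not whole (by over 0.005) in every library, compared with 72.6% of all genes, so reads shared with similar genes were part of their counts. XLOC_044398 and XLOC_001020 had the same WT vehicle mean (20.2 CPM) and the same T3 ratios (0.658 in WT and 0.858 in the mutant). Each is counted as a member, and whether they are separate genes was not tested. For the tests, counts were rounded, scaled by TMM and filtered with filterByExpr, and 22018 features were fitted over all 4 groups with edgeR 4.0.16 (quasi-likelihood) in R 4.3.3, with Benjamini-Hochberg adjustment within a contrast and a threshold of 0.05. Alternatives were DESeq2 1.42.0, limma 3.58.1 (voom), other size factors, no filter, a replicate block, fits of only the groups compared, no new_exon features and each library left out. The steps were tested on simulated data. Figures were drawn with matplotlib 3.10.9.

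The members and gene lists were chosen with earlier results of these data known. Named members are the 5 with the lowest WT ratio, the 5 with the highest WT vehicle CPM, the 5 ranked first by p for the difference of responses, and those at the limits. Values of some listed genes are left out. Symbols came from the study's supplementary table, of which a shortened copy was used, since the RefSeq gene table of UCB_Xtro_10.0 holds no XLOC identifiers. The replicates are separate pools of tadpoles. The labels give no batch, and the lane of each library is not given in the sources used here.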

Additional observations from a re-analysis of the deposited data

Results flagged for a closer look

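Every named member with a called difference between the responses was marked for a second look, because its response to T3 differed between the genotypes (edgeR's quasi-likelihood test over all features, adjusted p of at most 0.05). The mutant response minus the WT response was 1.52 on the log2 scale for XLOC_041159, 1.22 for XLOC_024386, 1.13 for XLOC_035879, 0.94 for XLOC_014337, 0.83 for XLOC_002878 and 0.79 for XLOC_045219. These libraries also chose the members, so the values are a description. The call of XLOC_041159 was lost without each of 10 single libraries and that of XLOC_014337 without each of 6, while the size of the difference stayed between 1.31 and 1.63 for the former and between 0.88 and 0.96 for the latter in those fits.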

How the results depend on the processing

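The number of members was 272 with CPM over XLOC features only and 255 with TMM library sizes, 19 with a WT ratio of at most 0.5, 134 with a floor of 5 CPM and 170 with a mutant window of 0.9 to 1.1. It ran from 215 to 380 with single libraries left out, and 256 genes met the rule without WT vehicle replicate 3, 162 of them members. DESeq2 called 64 members for the difference of responses, 9 for mutant over WT vehicle and 1 for T3 in the mutant, compared with 16, 2 and 0 by edgeR. The cause was not tested. With only the groups compared in the fit, 0 members were called for mutant over WT vehicle, where 28 of 21232 features were called in either direction. With single libraries left out, 92 to 192 members were called for T3 in WT, 3 to 12 for the difference, 0 to 5 for mutant over WT vehicle in either direction, and 32 to 115 for mutant T3 over WT T3, and 0 for T3 in the mutant in every such fit. Over all features these fits called 412 to 1274 lower in WT T3 and 7 to 47 for the difference in the members' direction. They called 33 to 504 for mutant over WT vehicle in either direction, 127 to 1364 higher in mutant T3 than in WT T3, and 25 to 179 for T3 in the mutant. The median WT ratio in unused libraries was 0.722 to 0.795.

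The labels do not say whether replicate numbers pair the libraries. The correlation of deviations of vehicle and T3 libraries within a genotype lay between −0.048 and 0.012 for same-numbered libraries. For libraries of different numbers it lay between −0.030 and 0.041. These values show no sign of pairing, but they cannot show that same-numbered pools were handled apart. With the replicate number as a block, 8 members were called for the difference and 0 for mutant over WT vehicle, 162 for T3 in WT, 84 for mutant T3 over WT T3 and 0 for T3 in the mutant. Over all features that fit called 23 for the difference in the members' direction and 76 for mutant over WT vehicle in either direction. It called 936 lower in WT T3, 566 higher in mutant T3 than in WT T3, and 30 for T3 in the mutant.

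For the 16 named members, no fitted WT change or difference reversed its sign under any alternative, and 17 values of each kind fell out of the call. Of these, XLOC_005734 accounted for 10 in WT. DESeq2 alone called the difference for XLOC_016048, XLOC_025164 and XLOC_042377. Of the members under 5 CPM, 0 were called for the difference. Their median coefficient of variation in WT vehicle was 18.5%, compared with 11.9% for members from 5 to 50 CPM and 14.8% from 50 CPM. For all genes of the same bands, in the same order, it was 16.0%, 8.61% and 6.43%. The part of depth in this was not tested.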

Other observations

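The rule was also applied, without its condition on the identifier, to the new_exon features. Their name gives them as new exons, and whether they lie outside the annotated genes was not tested. Of 1991 such features of at least 1 CPM in WT vehicle, 35 met the same numbers. They are not among the 267 members and were not analysed further.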
